A study of Mus musculus with 6 samples.

Results

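Translation initiation factors are the proteins that bring the ribosome and the initiator tRNA to the start codon of an mRNA. The genes described here are the 55 symbols, of 24346 in the deposited tables, that begin with Eif and a number from 1 to 6, and they were grouped by that number into eIF1 to eIF6. Their mRNA levels were read by sequencing of mouse platelet RNA, in 3 wild-type libraries and 3 libraries of homozygous Beta3(R734C) knock-in mice. The knock-in replaces 1 amino acid in the cytoplasmic tail of integrin β3, a subunit of the fibrinogen receptor of platelets. The labels gave no strain, age, sex, treatment or further allele for either group, and did not say whether the libraries of a group came from separate animals, so p-values measure the spread between libraries, which may be technical. Of the 55 members, 37 had a mean of at least 1 FPKM over the 6 libraries and are described singly. FPKM counts sequenced fragments relative to transcript length and library size, so levels can be compared between genes.

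In initiation, eIF1, eIF1A and eIF3 bind the small ribosomal subunit, eIF2 delivers the initiator tRNA as a complex with GTP, and the cap-binding complex of eIF4E, eIF4G and the helicase eIF4A recruits the mRNA. The ribosome then scans to a start codon. eIF1 rejects poor start sites, eIF5 triggers GTP hydrolysis by eIF2, and eIF5B joins the large subunit. Platelets have no nucleus, and their mRNA comes from the megakaryocytes that shed them.

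The start codons of the 3 genes that rose in the knock-in are shown because start-site choice is the step that eIF1 controls. Each line gives 9 bases before the start codon, the start codon in capitals and 4 bases after it, 5′ to 3′, from GENCODE M21 transcripts on GRCm38 (mm10). Eif1ax, which did not pass the test, is added as the gene of a second factor of the same step.
Eif1: tcgtatcgtATGtccg
Eif1b: tagtgtcgcATGtcca
Eif4g2: gccgccaaaGTGgaga
Eif1ax: tttgcggccATGccca
The windows lie at chr11:100320121-100320136 (plus strand), chr9:120492802-120492817 (plus), chr7:111081541-111081556 (minus) and chrX:159372391-159372406 (plus). A favourable context has a purine 3 bases before the start codon and a G directly after it. Eif1 and Eif1b had neither, as did 3 of the 37 tested members, the third being Eif3b. By contrast 32 of the 37 had the purine, 16 had the G and 14 had both. Eif4g2 was the only tested member whose annotated start codon was not ATG (1 of 37), and its GTG had both features. As background, initiation of Eif1 mRNA in a poor context is known as a feedback by which eIF1 limits its own synthesis, and Eif4g2 is known to start at GTG.

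Eif1 and Eif1b encode closely related proteins, so the first 150 bases of their coding sequences are set side by side, from the start codon, with the positions that differ in capitals.
Eif1: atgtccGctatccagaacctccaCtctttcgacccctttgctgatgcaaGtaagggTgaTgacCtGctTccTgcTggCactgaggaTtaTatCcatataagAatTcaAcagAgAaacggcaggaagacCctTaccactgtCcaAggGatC
Eif1b: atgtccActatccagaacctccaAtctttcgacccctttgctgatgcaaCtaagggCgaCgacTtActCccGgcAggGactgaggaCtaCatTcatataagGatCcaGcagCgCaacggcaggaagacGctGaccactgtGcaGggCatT
These bases differed at 25 positions. Over the whole coding sequence without the stop codon, 339 bases in both, 64 positions differed (81.1% identity). The longest run of bases that their transcripts shared was 25, so fragments longer than that which match without error can be told apart. Eif1 had stretches of at least 95% identity over at least 100 bases in 13 other annotated genes, among them Eif1-ps1 and Eif1-ps2, and its level is less certain for that reason. An exon of Eif1b overlaps D830035M03Rik on the other strand, and these kits do not mark strand.

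The summed FPKM of a library ranged from 641278 to 708432 for the wild type and from 758381 to 856863 for the knock-in, and the depth relative to wild-type library 1, read from the commonest ratio of low values, was 0.883 to 1.06. The absolute depth is unknown. Platelet markers were abundant in all libraries (8 of 8 tested, 2 of them called lower, Tubb1 and Itgb3; summed FPKM 46120 to 51816). Of 8 neutrophil markers 3 were at 0 throughout (Camp, Mpo, Elane), and their sum was at most 2.19 FPKM. T and NK cell markers summed to 2.67 to 4.42 FPKM for the wild type and 4.95 to 8.83 for the knock-in, nearly all of it Nkg7, with Cd3e, Cd3d, Cd4 and Klrb1c at 0. B cell markers summed to at most 0.693 FPKM, with Ms4a1 and Cd22 at 0. Of 7 monocyte and macrophage markers 6 stayed under 1 FPKM, with Ms4a7 and Cx3cr1 at 0, while Lyz2 alone gave sums of 7034 to 9128. Erythroid markers (12 genes, 10 tested, none called) summed to 38754 to 95249 FPKM for the wild type and 25416 to 182513 for the knock-in, and replicate 1 of each group held the most. The part of these other cell types in the results below was not tested. Of the 37 tested members 11 have a near-identical stretch in a gene that does not overlap them, by the measure given for Eif1, and 9 share exon bases with a gene on the other strand. Their levels are uncertain to that extent.

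The level of the 37 tested members ran from a mean of 1.09 FPKM (Eif3d) to 2902 FPKM and was carried by few genes. Eif1, the highest, held rank 35 of all 24346 symbols, followed by Eif4ebp1 at 437, Eif3h at 239 and Eif5 at 112. The Eif5 mean rested on knock-in library 1 (322 FPKM) and was 69.7 FPKM without it, below the Eif4g2 mean of 98.1 over the 6 libraries. Of the 37 tested members 4 had a mean above 100 FPKM, Eif5 among them through that library, 12 were at 10 or above, and 22 of the 37 lay under 5. In the symbol groups eIF1 to eIF4, 1 gene held most of the summed FPKM: Eif1 98.6% of eIF1, Eif2ak1 85.7% of eIF2, Eif3h 84.3% of eIF3 and Eif4ebp1 72.3% of eIF4. Of these, Eif2ak1 and Eif4ebp1 encode a kinase and a repressor that act on the factors and are not parts of them. Eif5 held 57.0% of eIF5 over the 6 libraries, from 35.6% to 79.2% in single libraries and 45.3% without knock-in library 1. Summed over all 55 members, the share of a library's FPKM was 0.495% to 0.504% for the wild type and 0.552% to 0.664% for the knock-in. Eif1 alone gave 2155 to 2382 and 3291 to 3906 FPKM of these sums. In bulk RNA, more platelets with a given mRNA and more of it per platelet cannot be told apart.

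**Figure D1:**
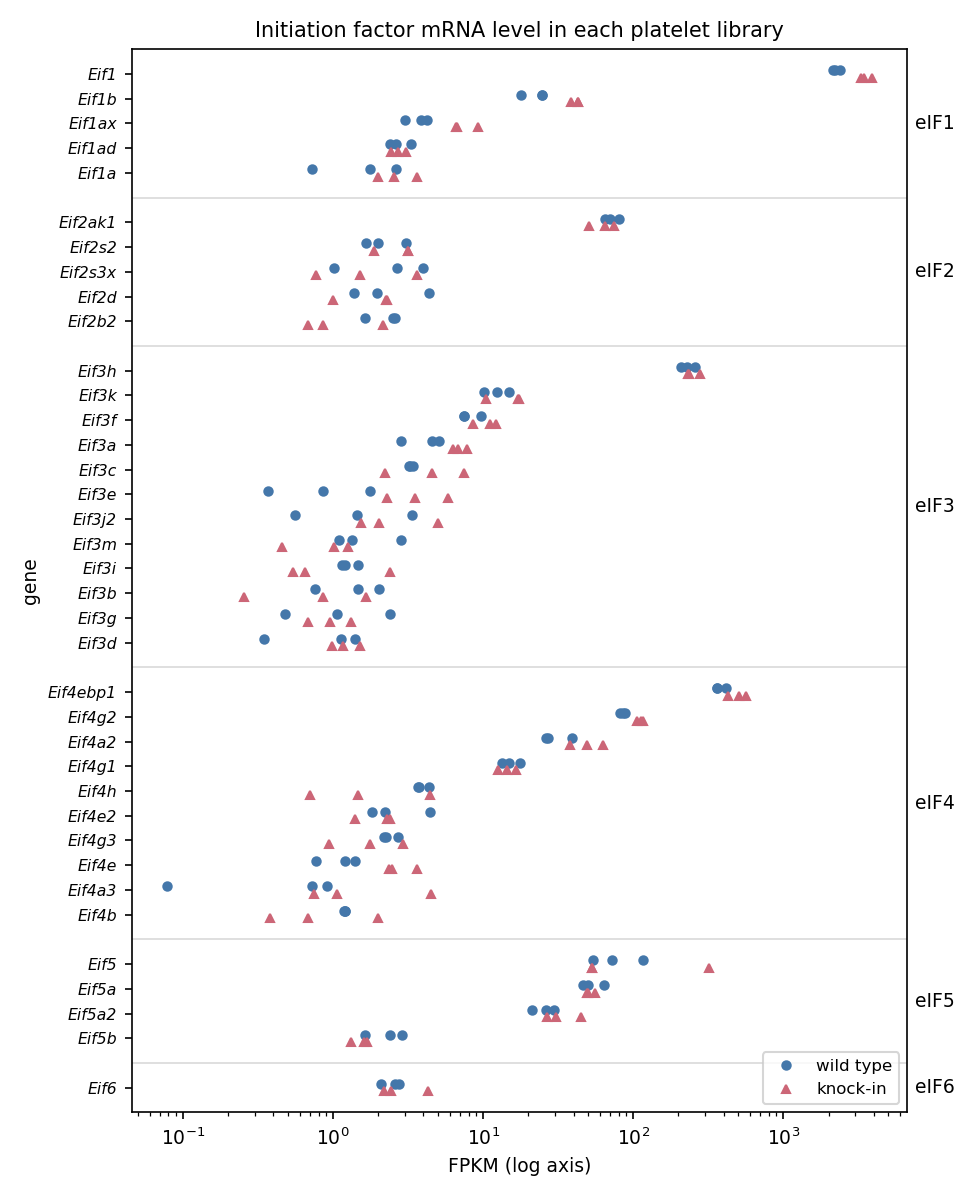
FPKM on a log axis for the 37 members with a mean of at least 1 FPKM, grouped by factor, with circles for the 3 wild-type and triangles for the 3 knock-in libraries. Eif1 lies farthest to the right, at 2155 to 3906 FPKM, and within eIF3 only Eif3h exceeds 100 FPKM.

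Between the genotypes, 3 of the 37 tested members rose in knock-in platelets and 0 fell: Eif1, Eif1b and Eif4g2 (limma, adjusted p under 0.05 over all 4859 genes tested). Over all genes tested 8.36% passed, 4.36% higher and 3.99% lower. The summed FPKM of every knock-in library was above that of every wild-type library. With the libraries rescaled on the total without erythroid and top genes, 178 genes rose and 252 fell, against 212 and 194 without rescaling. The members called were then Eif1 and Eif1b. Rescaled log2 fold changes were 0.60 for Eif1, 0.82 for Eif1b and 0.33 for Eif4g2 (limma adjusted p = 0.00815, 0.0166 and 0.0736). Levels as a share of the full sum were not tested. The median log2 fold change of the 37 was 0.20, against -0.01 for all genes tested, and 21 of the 37 estimates (56.8%) were above 0, against 48.5% of all. Unadjusted, 9 members had a limma p under 0.05, all with higher estimates. Over all genes tested the share was 25.4% in either direction and 12.5% with higher estimates. In 8 members every knock-in value lay above every wild-type value, and in 0 members below; over all genes tested the shares were 14.9% and 15.8%, 30.7% together. Among the members that were not tested, Eif2b4 and Eif4enif1 were separated in the same direction, with no value above 1.24 FPKM. The series' design text names a 2-fold limit. Applied to group means of FPKM + 1, it was passed by 1 member, Eif3e, against 3.11% of all genes. Eif3e passed the filter only through its knock-in values, and it is also among the 8 separated members and the 9 with a low unadjusted p. The filter keeps a gene on its mean over both groups, and 6 of the 37 had a mean under 1 FPKM in 1 group, so these counts describe the tested members and do not speak for the 18 that were not tested. Leaving out libraries singly in limma, 6 members were called without knock-in library 1 (5 higher and 1 lower, Eif4h), against 589 of all genes. In the fits that omitted knock-in library 2 or wild-type library 3, 1 member each was called, against 79 and 90 of all genes. With wild-type library 2 omitted no member was called (9 at an unadjusted p under 0.05), against 41 of all genes (946 at that p). With knock-in library 3 omitted no member was called either (7 at that p), against 0 of all genes (1002 at that p).

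**Figure D2:**
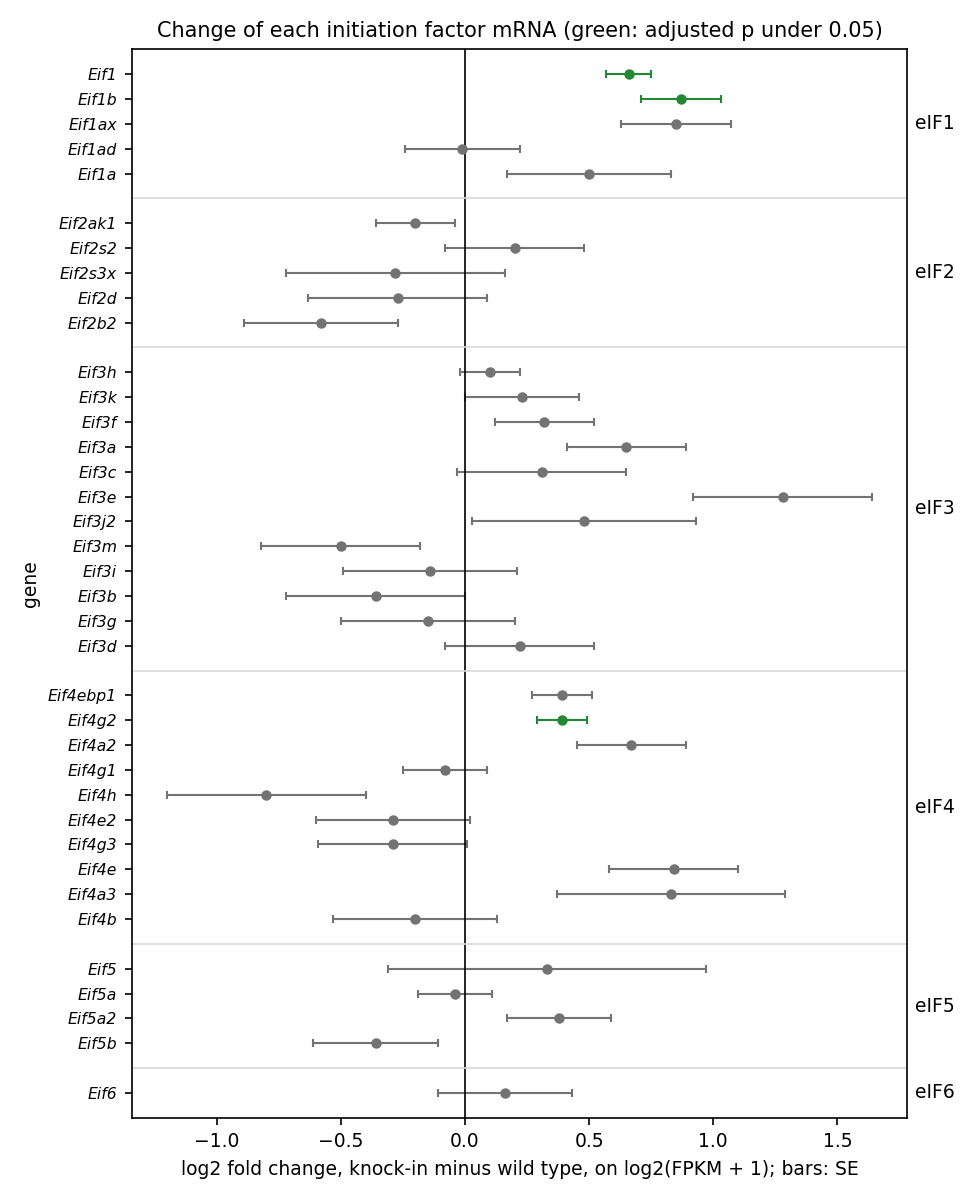
Log2 fold change (knock-in minus wild type, on the log2(FPKM + 1) scale) of the 37 tested members by factor, with bars for the SE and green for an adjusted p under 0.05. Eif1 (0.66), Eif1b (0.87) and Eif4g2 (0.39) are green and lie to the right of 0, and Eif5 has the widest bar (SE 0.64).

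Of the 3 members called 2 were in the eIF1 group, the paralogues Eif1 and Eif1b. The 3 calls among 37 members were near the share of all genes tested, 8.36%, so they do not set a factor apart. Eif1, which encodes the factor that guards start codon choice, measured 2382, 2214 and 2155 FPKM for the wild type against 3291, 3463 and 3906 for the knock-in. All knock-in libraries lay well above all wild-type libraries, with means of 2250 ± 118 and 3554 ± 317 FPKM (SD, n = 3 each). The rise was 1.58-fold (log2 fold change 0.66, SE 0.09, limma adjusted p = 0.00849). Eif1 lies on chromosome 11 at 100319885 to 100322096, plus strand. Its call was lost in fits that omitted wild-type library 2 (limma adjusted p = 0.0520), knock-in library 3 (0.0554) or the variance trend (0.0728).

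Eif1b, the paralogue shown above, was read at 24.7, 17.9 and 24.5 FPKM for the wild type against 38.7, 42.8 and 42.9 for the knock-in. The groups stood apart, with means of 22.4 ± 3.86 and 41.5 ± 2.37 FPKM (SD, n = 3 each), a 1.83-fold rise (log2 fold change 0.87, SE 0.16, limma adjusted p = 0.0153). The gene spans bases 120492232 to 120495330 of chromosome 9, plus strand. In every library Eif1 exceeded Eif1b by 80.9 to 123 times in FPKM. The Eif1b call was lost in 6 alternatives: with no filter on low values (0.0544), without the variance trend (0.0651), and in fits that omitted wild-type library 2 (0.0585), wild-type library 3 (0.0529), knock-in library 2 (0.0671) or knock-in library 3 (0.0747), all limma adjusted p.

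eIF1A, the partner of eIF1 on the small subunit, is encoded by the X-linked Eif1ax and the autosomal Eif1a. Eif1ax gave 3.88, 3.0 and 4.22 FPKM for the wild type against 6.68, 6.60 and 9.26 for the knock-in. The values did not overlap, but the difference narrowly missed the threshold (log2 fold change 0.85, SE 0.22, limma adjusted p = 0.0524). It passed in 4 of 17 alternatives (0.0316 to 0.0498), and the limma adjusted p reached 0.170 in the others. Eif1a averaged 1.71 ± 0.961 FPKM for the wild type against 2.71 ± 0.830 for the knock-in (SD, n = 3 each), with overlapping values (limma adjusted p = 0.408). Eif1ad, a gene with an eIF1A-like domain, measured 2.77 ± 0.481 and 2.73 ± 0.301 FPKM (SD, n = 3), a log2 fold change of -0.01 (SE 0.23).

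**Figure D3:**
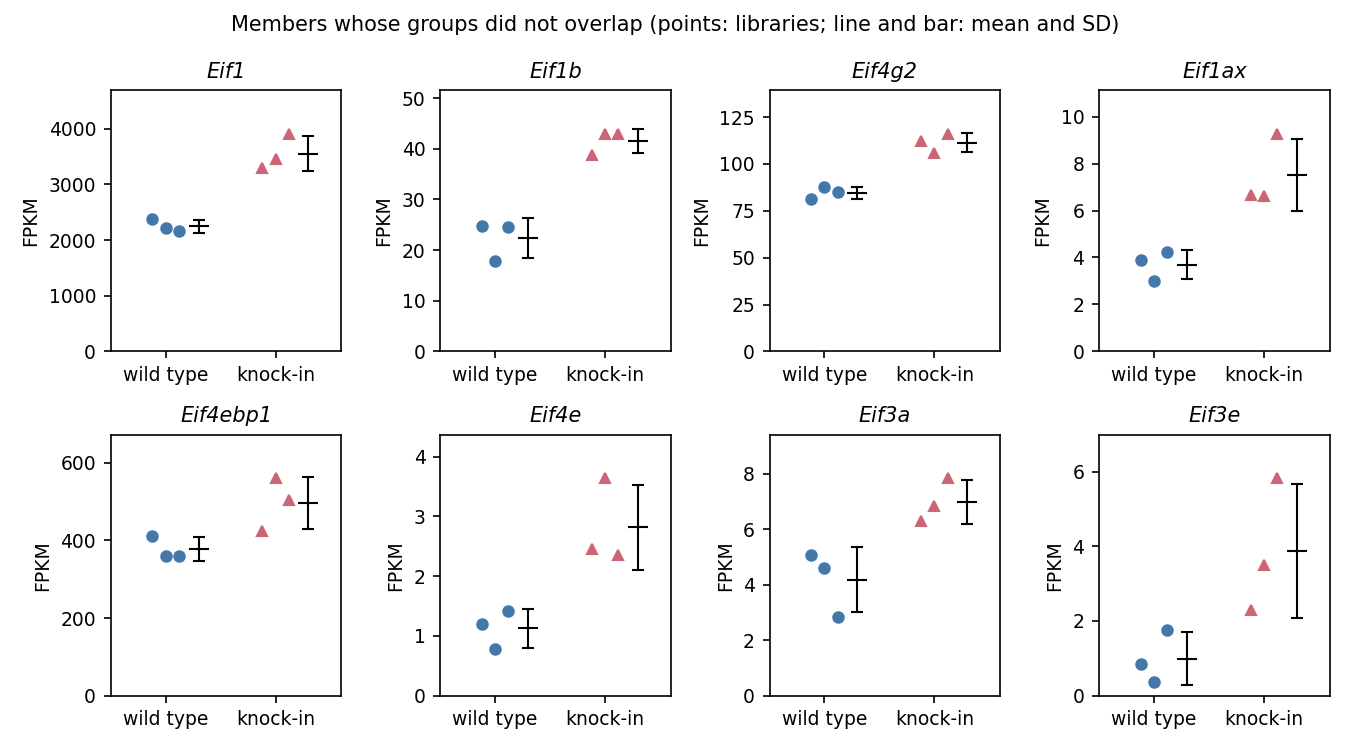
FPKM in each library, on linear axes that start at 0, for the 8 members whose groups did not overlap, with mean and SD beside the points. Eif1, Eif1b and Eif4g2 passed the test, and Eif1ax, Eif4ebp1, Eif4e, Eif3a and Eif3e did not. Over all genes tested the groups did not overlap for 30.7%, with 14.9% higher in the knock-in.

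eIF2 mRNAs were scarce, with the exception of a kinase that regulates eIF2. None of the 5 tested members passed, 1 estimate was higher and 4 were lower, and no tested member separated the groups. Over all genes tested 8.36% passed and 30.7% separated the groups, and 5 genes are too few to set against those shares. Eif2ak1 encodes HRI, the haem-regulated kinase that phosphorylates eIF2α and is best known from red cell precursors. It measured 70.2, 65.1 and 80.9 FPKM for the wild type against 74.0, 50.7 and 64.6 for the knock-in, which overlapped (log2 fold change -0.20, SE 0.16, limma adjusted p = 0.495). Knock-in library 1, the richest in erythroid markers, was the highest of the knock-in libraries for Eif2ak1 and lay within the wild-type range. The wild type differed: library 3 was the highest for Eif2ak1 (80.9 FPKM) with the lowest erythroid marker sum of that group, 38754 FPKM. Wild-type library 1 held the highest sum of that group, 95249 FPKM, at an Eif2ak1 level of 70.2 FPKM. The part of erythroid mRNA in these values was not tested. The other eIF2α kinases, Eif2ak2 (PKR), Eif2ak3 (PERK) and Eif2ak4 (GCN2), were under the filter, at means of 0.141, 0.224 and 0.00736 FPKM.

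Of the 3 subunits of eIF2 itself, the gene of the α subunit, Eif2s1, averaged 0.480 FPKM, was at 0 in 2 of the 6 libraries and was not tested. Eif2s2, for the β subunit, measured 2.24 ± 0.746 and 2.73 ± 0.737 FPKM, and Eif2s3x, for the γ subunit, 2.55 ± 1.47 and 1.98 ± 1.5 (wild type and knock-in, SD, n = 3 each). Neither difference passed (limma adjusted p = 0.699 and 0.748). Eif2s3y, the Y-linked copy of the γ subunit gene, was above 0 in 1 library only, at 0.0628 FPKM. The exchange factor eIF2B, which reloads eIF2 with GTP, was represented by Eif2b2 (2.24 ± 0.528 and 1.23 ± 0.800 FPKM, SD, n = 3; limma adjusted p = 0.290). Eif2b5 averaged 0.993 FPKM, just under the filter, and Eif2b1, Eif2b3 and Eif2b4 averaged 0.0794, 0.0438 and 0.374. Eif2d, for a factor of a different route of tRNA delivery, measured 2.55 ± 1.57 and 1.84 ± 0.736 FPKM (n = 3 each, SD; limma adjusted p = 0.699), and Eif2a was above 0 in 2 libraries.

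eIF3 is a large complex built from single copies of its subunits, but its mRNAs were far from equal. Eif3h was read at 208, 228 and 257 FPKM for the wild type against 234, 277 and 232 for the knock-in. These values overlapped, at 231 ± 25.0 and 247 ± 25.3 FPKM (SD, n = 3), and the difference did not pass (log2 fold change 0.10, SE 0.12, limma adjusted p = 0.655). Eif3k came next, 17.5 times lower than Eif3h by mean FPKM (13.6 to 22.5 times in single libraries), at 12.4 ± 2.34 and 14.9 ± 3.79 FPKM (SD, n = 3). The Eif3h lead was therefore present in 6 of 6 libraries. Eif3h lies on chromosome 15 at 51786558 to 51865523, minus strand, with no exon overlap with another gene and with 1 near-identical copy elsewhere.

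The genes of the other eIF3 subunits lay lower still. Eif3a, for the largest subunit, gave 5.08, 4.58 and 2.85 FPKM for the wild type against 6.28, 6.82 and 7.83 for the knock-in, which did not overlap yet did not pass (log2 fold change 0.65, SE 0.24, limma adjusted p = 0.127). Eif3e gave 0.854, 0.368 and 1.75 FPKM against 2.29, 3.49 and 5.82. All 3 knock-in values were above the wild-type range, and the log2 fold change of 1.28 (SE 0.36) was the highest of any tested member, with a limma adjusted p of 0.0661. Eif3e passed in 3 of 16 alternatives, among them sample weights (0.0390) and the fit without knock-in library 1 (0.0332). In the others the limma adjusted p reached 0.221. Its wild-type mean of 0.991 FPKM was under the filter, so it was tested because of its knock-in values. Eif3s6-ps1 and Eif3s6-ps2 hold near-identical stretches, so the Eif3e level is uncertain. Eif3e, Eif3f and Eif3h are known as mRNAs with a terminal oligopyrimidine tract, the class that also encodes ribosomal proteins. Eif3f measured 8.22 ± 1.26 and 10.6 ± 1.85 FPKM (n = 3 each, SD; limma adjusted p = 0.361), so of these 3 only Eif3e separated the groups.

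The remaining tested eIF3 genes all overlapped between the groups. Eif3c gave 3.41, 3.24 and 3.19 FPKM for the wild type against 7.43, 2.21 and 4.53 for the knock-in, high in knock-in library 1 and low in knock-in library 2. Eif3j2, for the loosely bound subunit j, averaged 1.80 ± 1.44 and 2.84 ± 1.87 FPKM, and its near-identical relative Eif3j1 averaged 0.163 over the 6 libraries. Eif3b, Eif3d, Eif3g, Eif3i and Eif3m had means over 6 libraries of 1.17, 1.09, 1.15, 1.23 and 1.33 FPKM, with log2 fold changes between -0.50 (Eif3m) and 0.22 (Eif3d). None of the 12 tested eIF3 genes passed (limma adjusted p of at least 0.0661), against 8.36% of all genes tested. Of their estimates 8 were higher and 4 were lower. Eif3l, at a mean just under 1 FPKM, was the closest member outside the filter, and Eif3d the closest inside.

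In eIF4, the gene of a repressor was the most abundant. Eif4ebp1 encodes 4E-BP1, which binds the cap-binding protein eIF4E and keeps it from eIF4G until mTOR phosphorylates it. It measured 412, 361 and 359 FPKM for the wild type against 425, 560 and 504 for the knock-in. The groups did not overlap, though knock-in library 1 lay close to wild-type library 1, and the difference did not pass (log2 fold change 0.39, SE 0.12, limma adjusted p = 0.0843). Without knock-in library 1 it passed (0.49, limma adjusted p = 0.0190), as it did without replicate 1 of both groups (0.56, 0.00621). Calls over all genes also went from 406 to 589 and 678 in these fits. Eif4ebp1 passed in 3 of 17 alternatives, and the limma adjusted p reached 0.241 in the others. The related Eif4ebp2 and Eif4ebp3 averaged 0.409 and 0.145 FPKM. Eif4ebp1 lies on chromosome 8 at 27260329 to 27276674, plus strand.

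Eif4e, for the cap-binding protein itself, gave 1.20, 0.773 and 1.41 FPKM for the wild type against 2.46, 3.64 and 2.35 for the knock-in. The groups were separate but the difference did not pass (log2 fold change 0.84, SE 0.26, limma adjusted p = 0.0843). The FPKM of Eif4ebp1 exceeded that of Eif4e by 154 to 467 times in the 6 libraries. Eif4e2, for a cap-binding repressor, measured 2.82 ± 1.38 and 2.03 ± 0.541 FPKM (n = 3 each, SD; limma adjusted p = 0.619). Eif4e3 averaged 0.410 FPKM, and Eif4e1b was listed at 0 in all 6 libraries. Eif4enif1, for an eIF4E transport protein, averaged 0.434 FPKM.

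Among the scaffold genes, Eif4g2 rose. It encodes DAP5, a relative of eIF4G that lacks the eIF4E binding site and serves cap-independent initiation. Its values were 81.3, 87.5 and 85.3 FPKM for the wild type against 112, 106 and 116 for the knock-in, tight within each group and without overlap. The means were 84.7 ± 3.12 and 112 ± 5.09 FPKM (SD, n = 3), a 1.31-fold rise (log2 fold change 0.39, SE 0.10, limma adjusted p = 0.0464). This was the least stable of the 3 calls: it was lost in 12 of 17 alternatives (limma adjusted p 0.0571 to 0.149), among them each fit that left out a library. It was also lost with rescaling without erythroid and top genes (0.33, limma adjusted p = 0.0736). The values above are not rescaled, and every knock-in library had a larger summed FPKM than every wild-type library. Over all alternatives the log2 fold change stayed between 0.33 and 0.43. Eif4g2 lies on chromosome 7 at 111067750 to 111083030, minus strand. The canonical scaffold gene Eif4g1 was 6.58 times lower by mean FPKM, at 15.3 ± 2.14 and 14.5 ± 1.99 (n = 3 each, SD; limma adjusted p = 0.835). Eif4g3 averaged 2.38 ± 0.293 and 1.88 ± 1.01 FPKM (n = 3 each, SD; limma adjusted p = 0.615).

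The helicase was represented by Eif4a2. It gave 39.1, 27.2 and 26.1 FPKM for the wild type against 38.1, 49.1 and 62.4 for the knock-in, and the groups overlapped only because wild-type library 1 exceeded knock-in library 1 (log2 fold change 0.67, SE 0.22, limma adjusted p = 0.0942). These are the libraries with the most erythroid mRNA in their groups. Without replicate 1 of both groups Eif4a2 passed (1.03, limma adjusted p = 0.00712), as it did without knock-in library 1 alone (0.85, 0.0319). It passed in 3 of 17 alternatives, and the limma adjusted p reached 0.267 in the others. The part of erythroid mRNA in these changes was not tested. Small RNA genes, Snora81 and Snord2 among them, and Rfc4 overlap exons of Eif4a2. Its paralogue Eif4a1 averaged 0.854 FPKM, 47.3 times lower, and was not tested. The Eif4a1 level is uncertain, since AC129773.1, Eif4a-ps4 and Gm5513 hold near-identical stretches and a pair of small RNA genes overlap its exons. Eif4a3, for the helicase of the exon junction complex, gave 0.907, 0.0782 and 0.727 FPKM against 0.748, 1.07 and 4.46, high in knock-in library 3 alone.

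Of the helicase cofactor genes, Eif4h gave 4.38, 3.75 and 3.69 FPKM for the wild type against 4.43, 0.706 and 1.47 for the knock-in. Knock-in library 1 lay at the top of the wild-type range and the other 2 below it (log2 fold change -0.80, SE 0.40, limma adjusted p = 0.262). Without knock-in library 1 it was called lower (-1.26, limma adjusted p = 0.0265), the only member that was called lower in any of the alternatives run. Eif4b measured 1.19 ± 0.00572 and 1.02 ± 0.857 FPKM (n = 3 each, SD; limma adjusted p = 0.755). Of the 10 tested eIF4 genes 1 passed, against 8.36% of all genes tested, and 5 estimates were higher and 5 were lower.

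In the eIF5 group, Eif5 varied with the erythroid content of the library. The gene encodes the GTPase activator of eIF2. It measured 117, 72.0 and 54.3 FPKM for the wild type against 322, 52.7 and 52.9 for the knock-in, with summed erythroid marker FPKM of 95249, 48746, 38754, 182513, 25416 and 32980 in the same order. The libraries with the most erythroid mRNA had the highest Eif5 level, and the 3 libraries with the least lay together at 52.7 to 54.3 FPKM. The difference between genotypes did not pass (log2 fold change 0.33, SE 0.64, limma adjusted p = 0.805), and the estimate turned to -0.54 without knock-in library 1 and to -0.24 without replicate 1 of both groups. Whether erythroid RNA accounts for the Eif5 values was not tested.

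**Figure D4:**
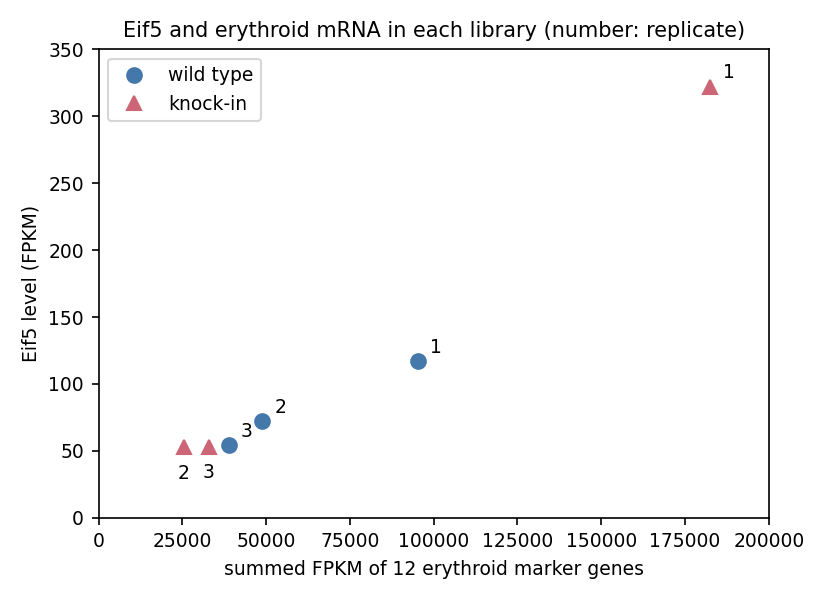
Eif5 FPKM against the summed FPKM of 12 erythroid marker genes, 1 point per library, numbered by replicate. Knock-in library 1 (322 FPKM) and wild-type library 1 (117 FPKM) stand highest on both axes, and the other 4 libraries lie between 52.7 and 72.0 FPKM.

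The other eIF5 genes did not follow this pattern. Eif5a, whose product carries hypusine and acts mainly in elongation, measured 50, 46.6 and 64.2 FPKM for the wild type against 56.0, 50 and 49.2 for the knock-in (log2 fold change -0.04, SE 0.15, limma adjusted p = 0.903). Its paralogue Eif5a2 was not far behind, at 25.5 ± 4.25 and 34.0 ± 9.45 FPKM (n = 3 each, SD; limma adjusted p = 0.306), so Eif5a exceeded it by 1.10 to 2.22 times in single libraries. Eif5b, for the GTPase of subunit joining, measured 2.29 ± 0.638 and 1.53 ± 0.196 FPKM (n = 3 each, SD; limma adjusted p = 0.426). Eif6, the single gene of a factor that keeps the large subunit apart, measured 2.48 ± 0.347 and 2.96 ± 1.15 FPKM (n = 3 each, SD; limma adjusted p = 0.774).

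Genes that act with the initiation factors but carry other names were read from a list of 45 symbols, of which 43 were in the tables and 17 were tested. Of these 2 rose and 0 fell, with a median log2 fold change of 0.07, where 4.36% of all genes tested rose and 3.99% fell. At an unadjusted limma p under 0.05 were 5 of the 17, against 25.4% of all genes. Paip2, for a protein that holds poly(A)-binding protein away from mRNA, gave 836, 634 and 721 FPKM for the wild type against 1035, 1226 and 1211 for the knock-in, without overlap (log2 fold change 0.67, SE 0.12, limma adjusted p = 0.0153). Atf4, whose mRNA is translated when eIF2α is phosphorylated, gave 70.2, 58.9 and 66.6 FPKM against 91.1, 99.0 and 91.4 (0.52, SE 0.11, limma adjusted p = 0.0275). Pabpc1, for the poly(A)-binding protein, gave 256, 230 and 228 FPKM against 453, 253 and 250, high in knock-in library 1, and did not pass (limma adjusted p = 0.338). Cyfip1, for an eIF4E-binding protein that works with FMRP, was chosen after its values were seen: 7.10, 6.17 and 7.68 FPKM against 3.97, 3.69 and 2.26, without overlap, at a limma adjusted p of 0.0505. Some alternatives called it lower: a pseudocount of 5, a filter of 5 FPKM and sample weights. So did rescaling without erythroid and top genes, and the fit without knock-in library 1. The calls of Paip2 and Atf4 were both lost when values were not filtered, in the fit without a variance trend, and when wild-type library 2, wild-type library 3, knock-in library 2 or knock-in library 3 was omitted. The Atf4 call was also lost in the fit with the replicate number as a block.

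For the next steps of translation, 8 of 16 elongation and termination genes were tested and none passed in limma, against 8.36% of all genes. Of the 8, 2 had an unadjusted p under 0.05, against 25.4% of all genes, and the median log2 fold change was 0.12. Eef1a1 measured 120 ± 7.0 and 135 ± 17.6 FPKM, Eef2 44.3 ± 3.51 and 51.2 ± 4.46, and Eef1g 34.4 ± 1.92 and 31.7 ± 1.40 (wild type and knock-in, SD, n = 3 each). By FPKM, Eif1 mRNA was thus above these elongation factor mRNAs in every library.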

How the data were processed

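Platelet RNA was sequenced in 3 wild-type and 3 knock-in libraries, whose titles give group and replicate number. TRIzol and miRNeasy Micro extraction was followed by SMART-Seq HT amplification and Nextera XT libraries, per the labels' protocols; these kits do not keep strand. The authors deposited FPKM per gene symbol, 1 table per library. The build was mm10, and Cuffdiff 2.2.1, SAMtools 0.1.18, Bowtie2 2.2.8 and TopHat2 2.1.1 were used, per the submitters' processing notes. Settings are not given in the sources used here, nor is the annotation.

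Genes with a mean of at least 1 FPKM (4859 of 12260 above 0) were tested on log2(FPKM + 1) with limma (3.58.1, in R 4.3.3): group as sole term, a variance trend, two-sided, with Benjamini-Hochberg adjustment over these genes and a threshold of 0.05. Folds are on that scale, which understates changes of low genes. A value of 0 may be a failed estimate. Alternatives were other pseudocounts (0.1, 5), filters, scalings, weights, no trend, a replicate block and left-out libraries. Positions and transcripts were from GENCODE M21 (GRCm38); copies were sought with BLAST 2.17.0. Every member at or above the filter was named, and of the other lists the genes that passed and the 3 most abundant; Cyfip1 falls outside this rule and was chosen after its values were seen. The members and lists, including the markers, were chosen with earlier results of these data known.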

Additional observations from a re-analysis of the deposited data

How the results depend on the processing

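Over 17 alternatives, or 16 for the 22 members that a filter of 5 FPKM removes, 25 of the 37 tested members kept the sign of their log2 fold change, among them Eif1 (0.58 to 0.75), Eif1b (0.73 to 1.0) and Eif4g2 (0.33 to 0.43). The 3 members called became 1 with no filter (107 of all genes), 0 without the variance trend (8 at an unadjusted p under 0.05; 0 and 1197 for all genes) and 7 with sample weights (603 of all genes). Leaving out 1 library gave 0 to 6 members called, and 0 to 589 of all genes where 406 were called with all 6 libraries. By library left out, all-gene calls were 321, 41 and 90 for wild-type libraries 1 to 3 and 589, 79 and 0 for knock-in libraries 1 to 3, the last with 1002 at an unadjusted p under 0.05. Without replicate 1 of both groups 678 genes and 4 members were called. The 2 partner and regulator genes called became 0 with no filter, 0 without the variance trend and 1 with the replicate block (Paip2, while Atf4 was lost), and 0 to 3 with 1 library left out. They became 3 where Cyfip1 was called lower as well. That was so with a pseudocount of 5, a filter of 5 FPKM, rescaling without erythroid and top genes, sample weights or knock-in library 1 left out. No elongation or termination gene was called in any alternative run.

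The replicate numbers come from the titles, and what same-numbered libraries share is not known. The correlations of same-numbered deviations were 0.158, 0.0235 and 0.141, and 5 of 6 libraries correlated best with their own number. The main test ignored these numbers, and whether same-numbered libraries share a source of variation was not tested. With the replicate block 306 genes and 3 members were called, Eif3e (limma adjusted p = 0.0474) in place of Eif4g2 (0.0955).

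No sign that turned was called on either side. Eif1ad gave 0.00 with quantile normalization, 0.02 without replicate 1 of both groups and -0.08 to 0.09 with 1 library left out; Eif5a gave 0.02 with quantile normalization and -0.13 to 0.10 with 1 left out. Without replicate 1 of both groups Eif2s3x gave 0.11, Eif3c 0.00, Eif5 -0.24 and Eif6 -0.15. With 1 library left out Eif2s3x ranged from -0.66 to 0.04, Eif3c from -0.02 to 0.67, Eif5 from -0.54 to 0.76, Eif6 from -0.07 to 0.30, Eif2d from -0.52 to 0.07, Eif3d from -0.03 to 0.39, Eif3g from -0.42 to 0.17, Eif3i from -0.50 to 0.07, Eif4b from -0.53 to 0.03 and Eif4g1 from -0.17 to 0.02. The cause of these changes was not tested. Of the 37 tested members 22 had a mean under 5 FPKM, where the spread between libraries limits what can be called.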

Other observations

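RefSeq promoter windows (250 bases before to 50 after the start, GRCm38.p6) were at hand for 29 of the 37 tested members, in 38 windows. The letters CCGGAAG, the core of sites for ETS factors, searched on both strands, occurred in 14 of the 38 windows (36.8%) and in 8.9% of 32851 windows of all genes. They were found for 12 members, among them Eif1b, Eif1ax, Eif2ak1 and Eif5a2. The letters AGATAA, the core of sites for GATA factors, occurred in 1 of the 38 windows (2.6%), that of Eif3c, and in 11.2% of all windows. The member windows are those of tested members only, while the windows of all genes include genes under the filter. The share among all tested genes was not read, so these differences cannot be called particular to initiation factors. Such matches describe letters and not binding.

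Annotated transcripts of the 37 tested members ran from 774 to 7995 bases, and across these genes the Spearman correlation of length with log2 fold change was -0.01; the genes share libraries and are not independent. The sex of the mice could not be read from the sex-linked genes: Ddx3y, Kdm5d and Uty were listed at 0 in all 6 libraries, and Xist and Eif2s3y were above 0 in 1 library each.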
